A study of Homo sapiens with 9 samples.

Results

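The genes described here were 38 enzymes, enzyme subunits, regulators and carriers of the tricarboxylic acid (TCA) cycle and of the routes by which pyruvate and glutamine carbon reach it. They were taken from a named list by symbol, and all 38 were found among the 58395 genes listed for each library of an HCT116 experiment. By role, 2 form the mitochondrial pyruvate carrier, 5 belong to the pyruvate dehydrogenase complex, 4 encode phosphatases and kinases of that complex, 3 refill or drain cycle intermediates, 17 are cycle enzymes or subunits, 6 serve the malate-aspartate shuttle and the entry of glutamate, and 1 exports citrate.

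Pyruvate made by glycolysis enters mitochondria through a carrier of MPC1 and MPC2 and is turned into acetyl-CoA by the pyruvate dehydrogenase complex, which kinases switch off and phosphatases switch on. Citrate synthase joins acetyl-CoA to oxaloacetate, and the cycle oxidizes the product back to oxaloacetate while giving NADH, FADH2 and a nucleotide triphosphate. Glutamine carbon enters as 2-oxoglutarate after glutamate loses its amino group to a dehydrogenase or an aminotransferase, and citrate can leave the mitochondrion to serve lipid synthesis.

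HCT116 is an established human colon carcinoma line, and all 9 libraries came from cells that carried a short hairpin RNA against STBD1 (shSTBD1) (a protein that binds glycogen and is thought to hand it to autophagy). The groups, 3 libraries each, were plvx neo (the vector alone), STBD1 WT (the wild-type protein, resistant to the hairpin) and STBD1 W203C (the same protein with 1 tryptophan replaced by cysteine). The methods describe stable lines made by lentiviral infection and drug selection, without mention of single clones, so each group stands for 1 engineered population and an untreated control without the hairpin was not analysed here. The names of the deposited tables call WT what the labels call W203C and the reverse. Groups follow the labels here. If the table names were right, each direction between the 2 constructs would be inverted, and what is given for 1 construct against plvx neo would belong to the other.

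Total expected counts, the RSEM estimates of read pairs per gene, ran from 16.9 to 23.3 M per library. STBD1 itself stood at 2.75 to 3.84 TPM, a length-scaled measure with the same total in every library, in plvx neo, 10.8 to 10.9 with STBD1 WT and 8.37 to 10.3 with STBD1 W203C. FAM47E-STBD1, a read-through gene that shares exons with STBD1 and can be assigned the same reads, stood at 0.96 to 2.41 TPM, 41.5 to 46.1 TPM and 34.7 to 38.4 TPM in the same order, so the STBD1 value alone understates the re-expression. Of 8 epithelial and colon markers, EPCAM, KRT8, KRT18, KRT19, CDH1 and CDX2 were present in every library, whereas CDX1 was listed at 0 and VIL1 reached at most 0.08 TPM. Of the 6 that could be tested, 5 were called in STBD1 WT vs plvx neo by edgeR, with log2 fold changes of −0.43 for KRT8, −0.44 for KRT18 and −0.11 for EPCAM and of 0.43 for KRT19 and 0.27 for CDH1. In STBD1 W203C vs STBD1 WT 3 were called and in STBD1 W203C vs plvx neo 2. Among 7 markers of other cell types, PTPRC, PECAM1, COL1A2 and ALB reached at most 0.64 TPM. VIM stood at 1.17 to 2.35 TPM. COL1A1 stood at 13.8 to 16.4 TPM in plvx neo, 16.4 to 21.6 with STBD1 WT and 12.6 to 18.2 with STBD1 W203C, and ACTA2 at 3.24 to 4.35, 5.5 to 8.28 and 4.41 to 4.64 TPM. The part of these 2 genes and of the epithelial markers in the differences below was not tested.

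The 38 genes were expressed over a wide range. Their mean level over the 9 libraries had a median of 54.8 TPM, against 10.6 TPM over the 15289 genes tested between STBD1 WT and plvx neo, and 35 of the 38 lay above that second value. PDP1, the catalytic subunit of a phosphatase that activates pyruvate dehydrogenase, was the most abundant at 268 TPM, followed by MDH2, the mitochondrial malate dehydrogenase, at 239 TPM and PDHA1, the catalytic alpha subunit of pyruvate dehydrogenase, at 175 TPM. The lowest were PC, pyruvate carboxylase, at 9.93 TPM, PDP2, a second phosphatase, at 6.37 TPM and PDK4, an inactivating kinase, at 0.88 TPM. PDK4 rested on as few as 34 expected counts in a library, so only large differences in it were detectable at this depth. Summed over the 38 genes, the TPM was 2762 to 2838 in plvx neo, 2706 to 2738 with STBD1 WT and 2835 to 2933 with STBD1 W203C, or 0.271% to 0.293% of all transcripts. The STBD1 WT sums lay below all others, and the other groups overlapped.

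**Figure D1:**
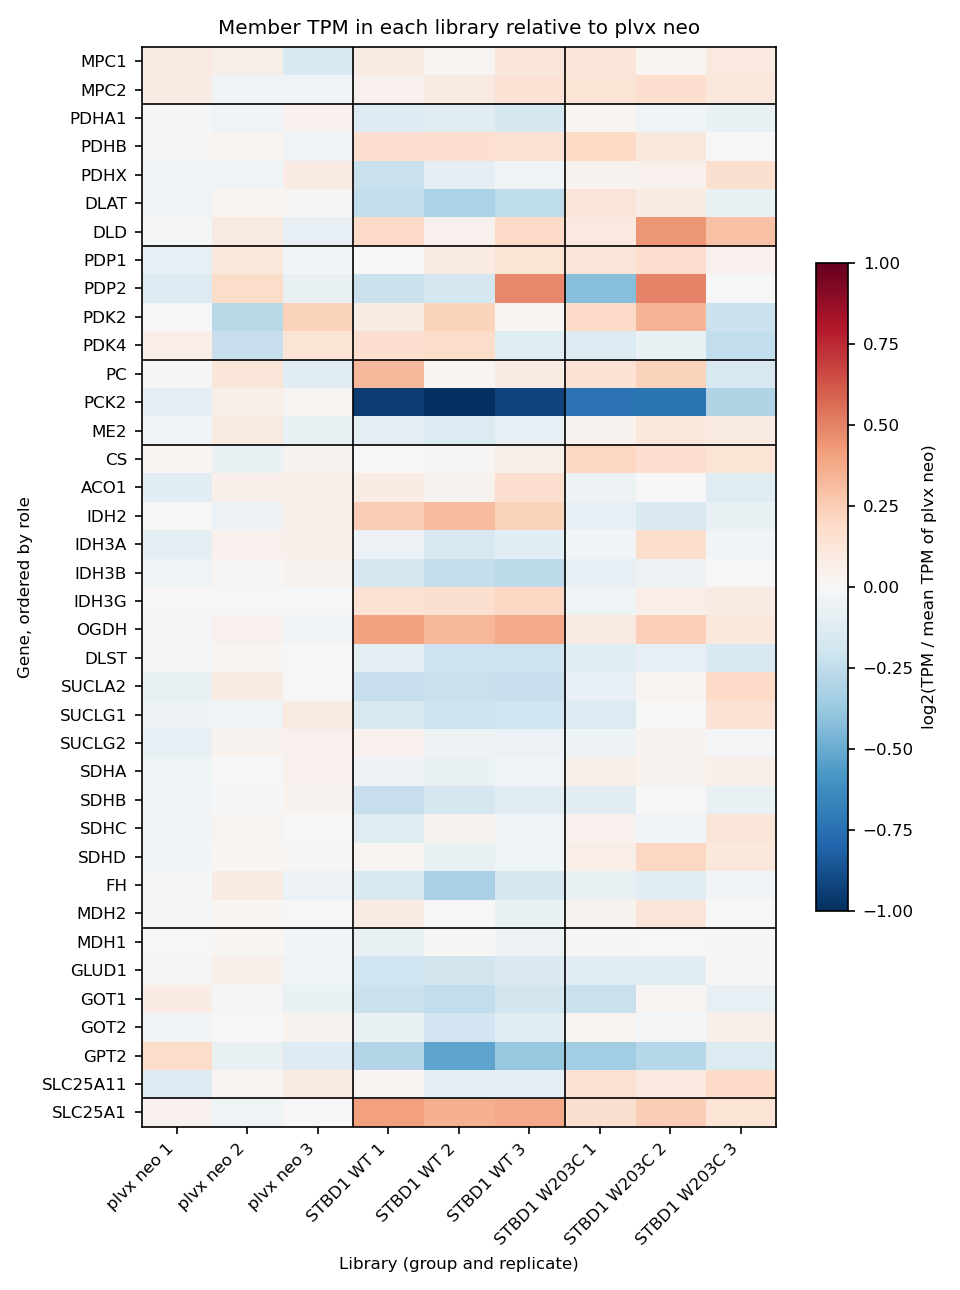
Each cell shows the TPM of 1 of the 38 genes (rows, grouped by role) in 1 of the 9 libraries (columns), as log2 of its ratio to the plvx neo mean, in red where higher and blue where lower. PCK2 is the darkest blue row, with STBD1 WT at 17.0 TPM and STBD1 W203C at 22.1 TPM against 33.0 TPM in plvx neo, and most other rows stay pale.

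STBD1 WT vs plvx neo compares cells given the protein back with cells holding the vector alone. Each group was a single population, so the protein and other differences between the populations cannot be told apart. All 38 genes passed the filter on low counts in each comparison. Of these, 19 had an adjusted p below 0.05 (edgeR quasi-likelihood test, Benjamini-Hochberg over all genes tested), against 27.8% of all genes tested. Since 35 of the 38 lay above the median level of all genes tested, these shares were not compared at equal expression. The part of expression level in them was not tested. The called genes leaned downward: 5 were higher and 14 lower in STBD1 WT, where 13.9% of all genes were called higher and 13.9% lower. PDHB, IDH2, IDH3G, OGDH and SLC25A1 rose, and PDHX, DLAT, PCK2, IDH3A, IDH3B, DLST, SUCLA2, SUCLG1, SDHB, FH, GLUD1, GOT1, GOT2 and GPT2 fell. The median log2 fold change over the 38 genes was −0.04, against 0.01 over all genes tested. In cells measured in bulk, a lower level can come from fewer cells that hold a transcript or from less of it per cell, and these cannot be told apart. Only PCK2 was both called and changed by at least 1.5-fold, where 3.54% of all genes were. The TPM ranges of both groups were separate for 19 of the 38 genes, against 31.3% of all genes tested.

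STBD1 W203C vs STBD1 WT compares the populations of both constructs, so the substitution and other differences between these populations cannot be told apart. The construct's own RNA was also lower in STBD1 W203C, with log2 fold changes of −0.28 for STBD1 and −0.27 for FAM47E-STBD1 (edgeR adjusted p = 0.0095 and 0.0011), so the substitution and the level of the construct cannot be told apart. Here 14 of the 38 genes were called, against 27.9% of all genes, with 10 higher and 4 lower in STBD1 W203C where the shares of all genes were 14.5% and 13.4%. Of all genes called, 51.8% were thus higher, and 68.8% were with limma on log2(TPM + 1). PDHX, DLAT, DLD, PCK2, ME2, IDH3B, SUCLA2, SDHD, GOT2 and GPT2 rose, and ACO1, IDH2, OGDH and SLC25A1 fell. None of the 38 was called with a change of at least 1.5-fold, against 3.13% of all genes, and TPM ranges were separate for 21 of the 38, against 33.1%. The median log2 fold change was 0.03 over the 38 genes and −0.01 over all genes tested. Without replicate 3 of STBD1 W203C 8 genes were called, and GPT2, IDH3B, ME2, PDHX, SDHD and SUCLA2 were lost. Of these, GPT2 and SUCLA2 kept their calls when any other library was left out, and the other 4 also lost theirs without at least 1 other library.

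In STBD1 W203C vs plvx neo, which shares its libraries with the other 2 comparisons, 4 of the 38 genes were called, against 5.7% of all genes. SLC25A1 rose, where 3.03% of all genes did, and PCK2, DLST and GPT2 fell, where 2.67% did. PCK2 passed 1.5-fold, as did 0.69% of all genes. TPM ranges were separate for 11 of the 38, against 20.2%, and the median log2 fold change was −0.01 over the 38 genes and −0.0031 over all genes. With limma on log2(TPM + 1), none of the 38 was called and 8 had an unadjusted p below 0.05, while DESeq2 called 3. Over all genes, that limma fit called 74.0% of its genes higher, against 53.2% by edgeR. Leaving out any 1 of plvx neo replicates 2 and 3 or STBD1 W203C replicates 1 and 2 left 2 calls, PCK2 and GPT2.

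**Figure D2:**
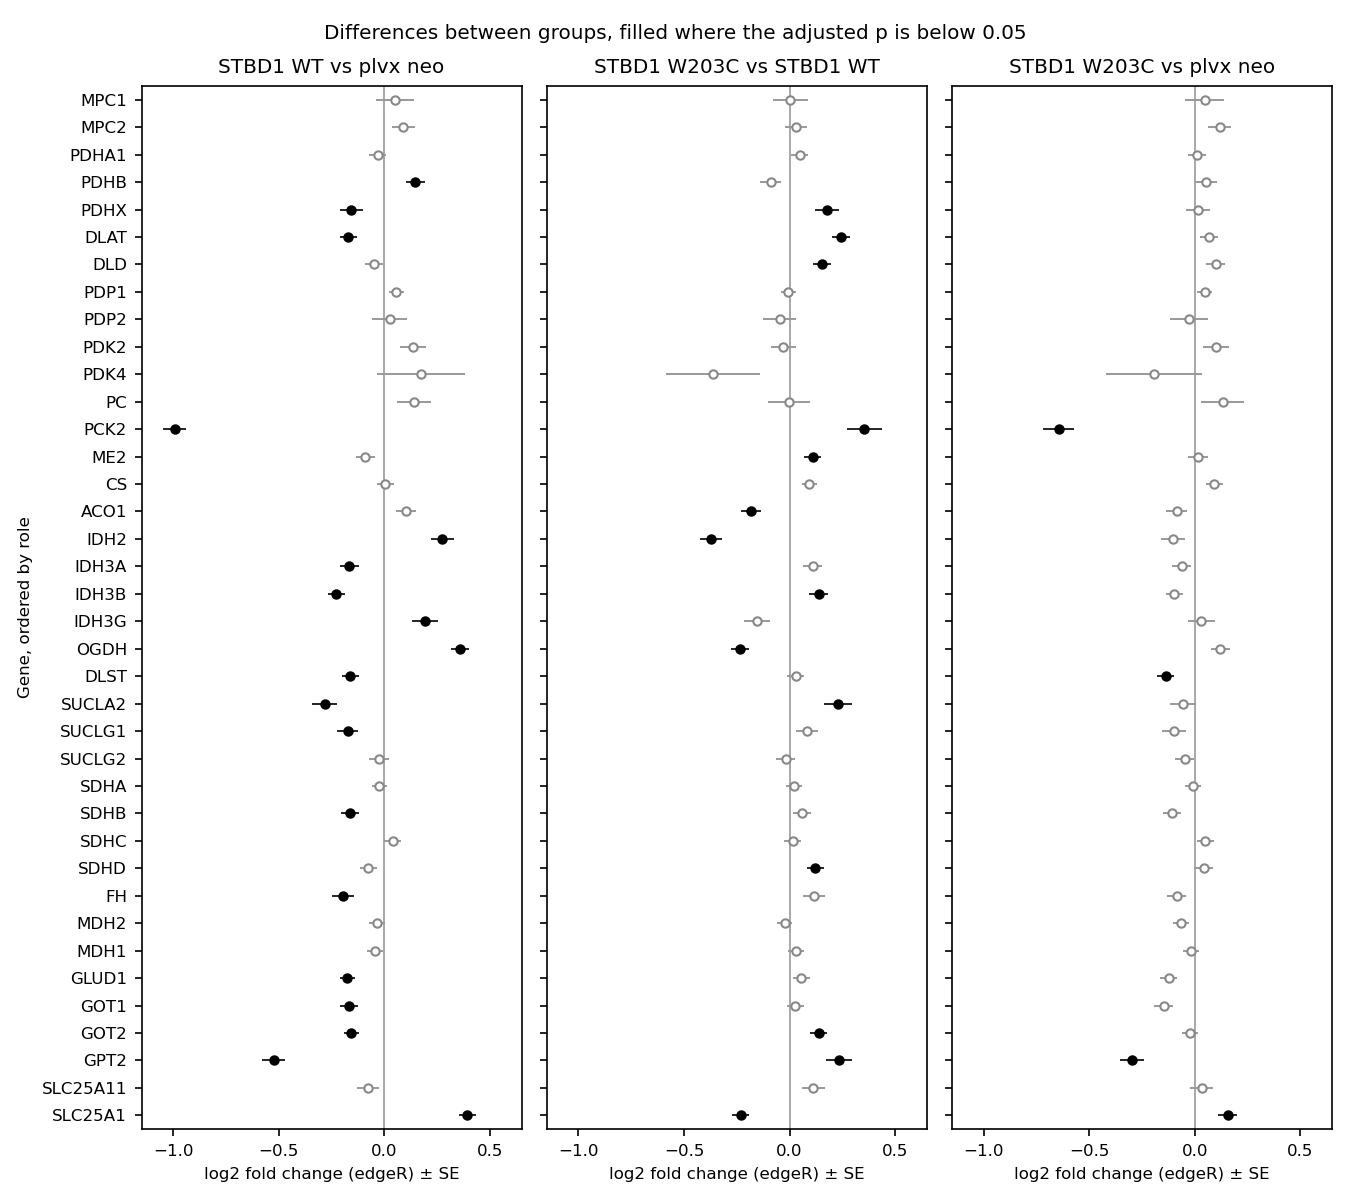
The horizontal axis is the edgeR log2 fold change and the bars its standard error, with 1 panel per comparison and the 38 genes in rows by role. Filled points have an adjusted p below 0.05: 19 in STBD1 WT vs plvx neo, 14 in STBD1 W203C vs STBD1 WT and 4 in STBD1 W203C vs plvx neo. PCK2 lies farthest from 0 in the first and last panels.

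PCK2 showed the largest difference in both comparisons with plvx neo. It encodes the mitochondrial phosphoenolpyruvate carboxykinase, which turns oxaloacetate into phosphoenolpyruvate and so drains the cycle, and it lies on the plus strand of chromosome 14 at 24094053 to 24110598 (hg38). Its level was 31.0, 34.4 and 33.6 TPM in plvx neo, 17.1, 16.5 and 17.4 TPM in STBD1 WT and 19.8, 19.9 and 26.8 TPM in STBD1 W203C. The 3 groups did not overlap, with STBD1 WT lowest and plvx neo highest, and replicate 3 of STBD1 W203C stood above its 2 partners. The log2 fold change was −0.99 (SE 0.055, edgeR adjusted p = 6.3e-11) in STBD1 WT vs plvx neo, 0.35 (SE 0.082, adjusted p = 0.0026) in STBD1 W203C vs STBD1 WT and −0.64 (SE 0.072, adjusted p = 2.4e-06) in STBD1 W203C vs plvx neo. Without that replicate the difference between the constructs was 0.22, still called. With limma on log2(TPM + 1) or log2(TPM + 0.1) it was not called (highest adjusted p = 0.088).

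PCK2 is widely listed among genes driven by ATF4, a transcription factor of the response to amino acid shortage and endoplasmic reticulum stress that binds a composite element of the CCAAT-enhancer binding protein and ATF families. The letters TGATGNAAN, 1 form of that element, were searched on both strands of RefSeq promoters (GRCh38.p14, 250 bases before to 50 after each start), of which 34 of the 38 genes had one. They were in 1268 of 35116 promoters (3.61%) and in those of 2 of the genes, GOT1, the cytosolic aspartate aminotransferase, and SLC25A11, the 2-oxoglutarate and malate carrier of the shuttle. The promoters of PCK2, which moved most, and of GOT1, which holds a match, are shown in lower case 5′ to 3′ on the strand of the gene, with the match in capitals. That of PCK2, at chr14:24094061-24094360 on the plus strand, held no match in this window, and that of GOT1, at chr10:99430575-99430874 on the minus strand, held it 199 to 191 bases before the start, on the opposite strand of the gene.
PCK2: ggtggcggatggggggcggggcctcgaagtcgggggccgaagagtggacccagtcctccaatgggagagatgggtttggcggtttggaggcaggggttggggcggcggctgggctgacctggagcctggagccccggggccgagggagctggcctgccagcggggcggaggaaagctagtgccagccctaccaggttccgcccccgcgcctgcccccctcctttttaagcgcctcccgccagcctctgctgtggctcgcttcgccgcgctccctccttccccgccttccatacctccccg
GOT1: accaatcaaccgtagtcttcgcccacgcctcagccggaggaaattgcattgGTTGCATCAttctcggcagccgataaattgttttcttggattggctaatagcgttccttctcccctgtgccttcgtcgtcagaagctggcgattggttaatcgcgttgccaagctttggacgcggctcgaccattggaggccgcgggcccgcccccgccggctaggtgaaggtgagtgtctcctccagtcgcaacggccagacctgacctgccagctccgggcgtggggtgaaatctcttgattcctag
The letters ACGTG, the core of the element bound by hypoxia-inducible factors, were in 7518 promoters (21.4%) and in those of 8 of the genes, PDHB, PDHX, DLAT, PDP2, PDK2, PC, IDH3G and GOT2. The percentages count promoters, whereas a gene was counted if any of its promoters held a match, and PDHX, PDK2 and PC have several. These matches describe the windows only.

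The other 2 genes that refill or drain the cycle, ME2 and PC, showed smaller differences. ME2, the mitochondrial malic enzyme that makes pyruvate from malate, stood at 43.5 to 48.5 TPM in plvx neo, 41.4 to 42.9 TPM in STBD1 WT and 46.7 to 48.9 TPM in STBD1 W203C, and rose by a log2 of 0.11 (SE 0.040, edgeR adjusted p = 0.045) from STBD1 WT to STBD1 W203C. That call was lost whichever of the 6 libraries was left out. PC, which makes oxaloacetate from pyruvate, was called in none of the 3 comparisons, at 8.77 to 10.2, 9.53 to 11.8 and 8.42 to 11.1 TPM.

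Pyruvate entry was described by the carrier and the dehydrogenase complex. The carrier subunits MPC1 and MPC2 were called in no comparison by the main edgeR test. Their levels stayed within 20.2 to 24.4 TPM and 41.5 to 48.0 TPM over all libraries. MPC2 was called in STBD1 WT vs plvx neo after a correction for GC content and length. In the complex, DLAT, the acetyl-transferring E2 core, was at 37.1, 38.4 and 38.3 TPM in plvx neo, 31.9, 30.5 and 31.8 TPM in STBD1 WT and 41.4, 39.9 and 36.3 TPM in STBD1 W203C. STBD1 WT lay below both other groups, which overlapped. DLAT fell by 0.17 on the log2 scale (SE 0.040, edgeR adjusted p = 0.0031) in STBD1 WT vs plvx neo and rose by 0.24 (SE 0.042, adjusted p = 0.00018) in STBD1 W203C vs STBD1 WT. PDHX, the protein that holds the E3 enzyme in the complex, followed the same order with smaller margins, at 24.6, 24.4 and 26.6 TPM, then 21.6, 23.6 and 24.5 TPM, then 25.8, 25.9 and 28.2 TPM. Its STBD1 WT library of 24.5 TPM overlapped plvx neo, while all STBD1 W203C libraries lay above STBD1 WT (log2 fold change 0.18, SE 0.055, edgeR adjusted p = 0.02). PDHX fell by 0.16 (SE 0.055, edgeR adjusted p = 0.039) in STBD1 WT vs plvx neo, a call kept in 5 of 15 alternatives. Its call between the constructs was kept in 8 of 15. DESeq2 and both limma fits on TPM lost both PDHX calls.

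Of the E1 subunits, PDHB was called and PDHA1 was not. PDHB, the beta subunit, rose in STBD1 WT, from 57.6, 58.3 and 55.9 TPM to 64.5, 64.3 and 63.4 TPM (log2 fold change 0.15, SE 0.047, edgeR adjusted p = 0.023), without overlap. That call was lost with DESeq2, without the filter and without plvx neo replicate 3 or STBD1 WT replicate 1 or 2. PDHA1, its partner, was not called, with a log2 fold change of −0.03, although its TPM of 178 to 188 in plvx neo and 161 to 168 in STBD1 WT did not overlap either. Scaled to library size alone (CPM), PDHA1 counts were 112 to 116 in plvx neo and 112 to 114 in STBD1 WT. TPM is also divided by the estimated transcript length. For PDHA1 that length was 906 ± 9.89 bases (SD, n = 3) in plvx neo and 964 ± 18.9 in STBD1 WT. In STBD1 W203C it was 948 ± 12.5 bases. The part of this length in the following ratio, taken on TPM, was not tested. The ratio of PDHA1 to PDHB was 3.18 ± 0.159 (SD, n = 3) in plvx neo, 2.58 ± 0.0380 with STBD1 WT and 2.91 ± 0.129 with STBD1 W203C. STBD1 WT lay below both other groups (exact permutation test, two-sided, p = 0.1 in each comparison, the smallest that 3 against 3 libraries allow, and 0.48 after adjustment over the 24 ratio tests).

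DLD, the E3 dihydrolipoyl dehydrogenase shared by the pyruvate, 2-oxoglutarate and branched-chain complexes, depended on the unit. It rose by a log2 of 0.15 (SE 0.042, edgeR adjusted p = 0.0088) in STBD1 W203C vs STBD1 WT on expected counts, and its log2 fold changes against plvx neo were −0.05 (SE 0.042) for STBD1 WT and 0.10 (SE 0.044), neither called. In TPM, DLD stood at 94.2, 101 and 89.4 in plvx neo, 108, 97.5 and 108 with STBD1 WT and 101, 129 and 116 with STBD1 W203C, so STBD1 WT overlapped with both other groups, STBD1 W203C lay just above plvx neo and the STBD1 WT mean lay above that of plvx neo. On log2(TPM + 1) the STBD1 WT difference from plvx neo was 0.14 and that between the constructs was not called. The mean transcript length that the deposited tables assign to DLD, by which TPM is divided, was 1473 ± 46.2 bases (SD, n = 3) in plvx neo, 1326 ± 77.5 with STBD1 WT and 1364 ± 86.0 with STBD1 W203C.

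None of the 4 regulators of the complex was called in any comparison by the main edgeR test or DESeq2. By the main test, 1 of them had an unadjusted p below 0.05, in STBD1 WT vs plvx neo. PDP1 was called in that comparison after a correction for GC content and length, without and with the replicate block. PDP1 stood at 241 to 276 TPM in plvx neo, 256 to 281 with STBD1 WT and 263 to 288 with STBD1 W203C. PDK2, an inactivating kinase, stood at 19.2 to 27.3, 23.7 to 27.2 and 20.1 to 29.4 TPM. PDP2 had the most variable TPM of the 38 genes within groups, with a mean coefficient of variation of 24.3%, and PDK2 followed at 14.5%. The estimated transcript length of PDP2 varied as well, from 3140 to 5082 bases over the libraries, while its CPM, counts scaled to library size alone, stayed within 20.7 to 26.1. The kinase PDK1 was outside the list and is described with the other pathway genes.

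**Figure D3:**
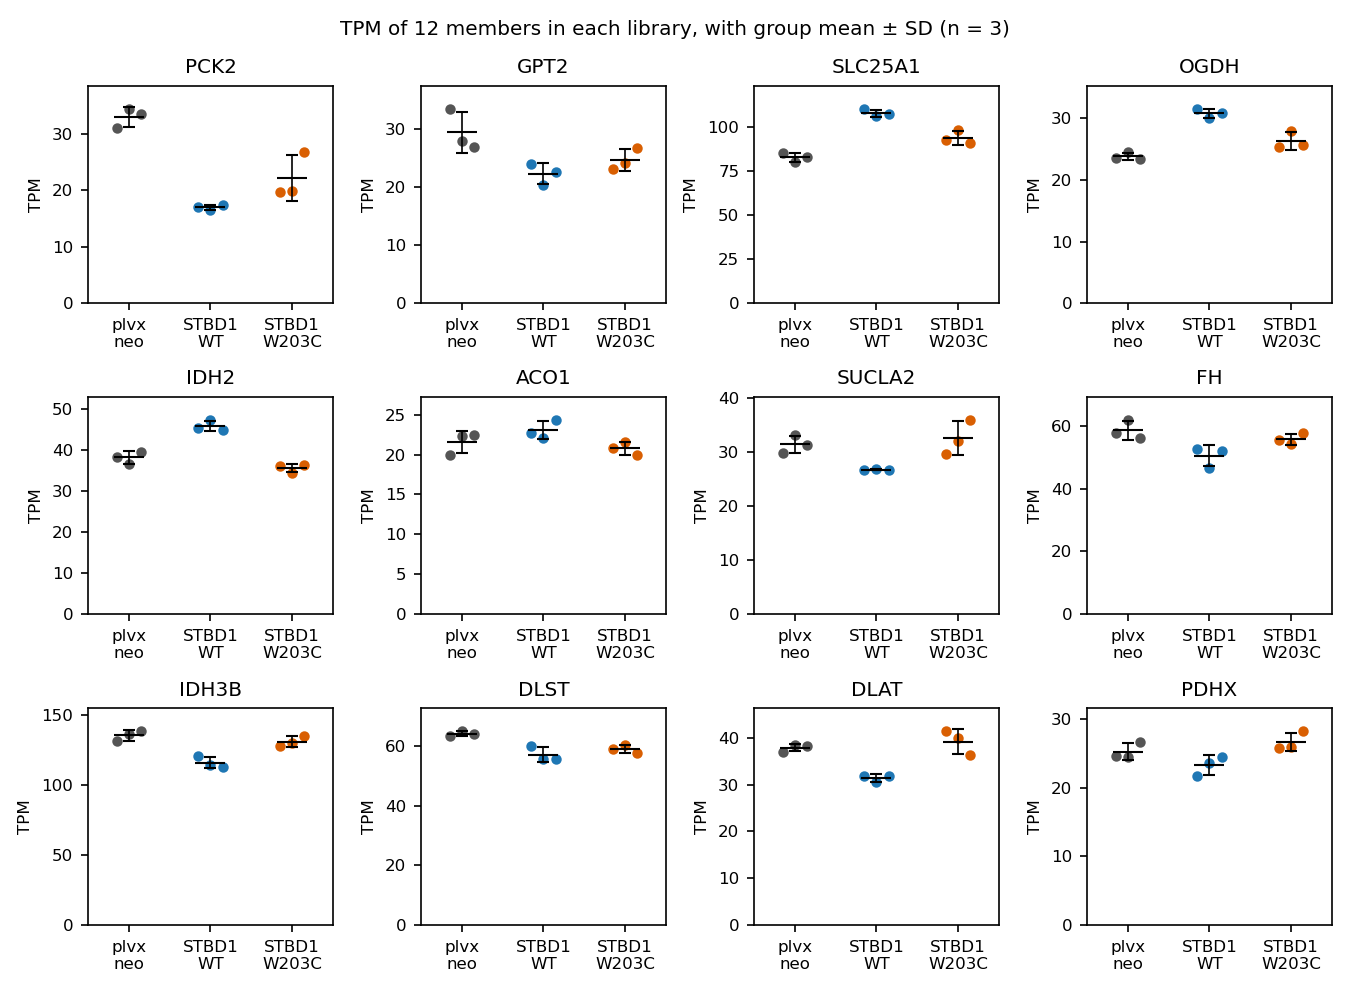
Points give the TPM (vertical axis, from 0) of 12 genes in each of the 9 libraries, and bars the group mean ± SD (n = 3). PCK2, GPT2, SUCLA2, FH, IDH3B, DLST, DLAT and PDHX have their lowest group mean in STBD1 WT, whereas SLC25A1, OGDH, IDH2 and ACO1 have their highest there.

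Among the cycle enzymes, those of the 2-oxoglutarate steps moved in opposite directions. OGDH, the E1 subunit of the 2-oxoglutarate dehydrogenase complex, lies on the plus strand of chromosome 7 at 44606572 to 44709066 and stood at 23.5, 24.5 and 23.4 TPM in plvx neo, 31.5, 30.1 and 30.9 TPM in STBD1 WT and 25.3, 28.0 and 25.7 TPM in STBD1 W203C. The 3 groups did not overlap, with STBD1 WT highest. OGDH rose by a log2 of 0.36 (SE 0.043, edgeR adjusted p = 2.9e-06) in STBD1 WT vs plvx neo, fell by 0.23 (SE 0.044, adjusted p = 0.00036) in STBD1 W203C vs STBD1 WT and differed by 0.12 (adjusted p = 0.14) in STBD1 W203C vs plvx neo. DLST, the E2 core of the same complex, went the other way, at 63.4, 65.1 and 64.3 TPM in plvx neo, 60.1, 55.7 and 55.8 TPM in STBD1 WT and 59.1, 60.5 and 57.8 TPM in STBD1 W203C. Both constructs lay below plvx neo for DLST (log2 fold changes −0.16 and −0.14, edgeR adjusted p = 0.0047 and 0.045). The second of these calls was lost when any of the libraries but STBD1 W203C replicate 3 was left out. Both limma fits on TPM lost both DLST calls, and DESeq2 lost the second.

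The isocitrate dehydrogenase genes were called in both directions. IDH2, the mitochondrial enzyme that makes NADPH, lies on the minus strand of chromosome 15 at 90083045 to 90102477 and stood at 38.3, 36.5 and 39.5 TPM in plvx neo, 45.3, 47.2 and 44.8 TPM in STBD1 WT and 35.9, 34.5 and 36.3 TPM in STBD1 W203C. All STBD1 WT libraries lay above all others. IDH2 rose by a log2 of 0.27 (SE 0.055, edgeR adjusted p = 0.00078) in STBD1 WT vs plvx neo and fell by 0.37 (SE 0.052, adjusted p = 1.5e-05) in STBD1 W203C vs STBD1 WT, its largest difference and the largest among the 14 genes called there. Of the NAD-linked enzyme, the gamma subunit IDH3G rose in STBD1 WT by 0.19 (SE 0.062, edgeR adjusted p = 0.025), whereas the catalytic alpha subunit IDH3A fell by 0.17 (SE 0.045, adjusted p = 0.0092) and the beta subunit IDH3B fell by 0.23 (SE 0.040, adjusted p = 0.00026). The IDH3G call was lost with DESeq2, both limma fits on TPM, and the GC and length correction together with the replicate block. It was also lost without plvx neo replicate 2 or STBD1 WT replicate 1 or 2. The IDH3A call, on TPM that overlapped between both groups, was lost with both limma fits and without STBD1 WT replicate 2. It was also lost with the GC and length correction, without and with the replicate block.

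IDH3B stood at 132, 137 and 139 TPM in plvx neo, 121, 115 and 113 TPM in STBD1 WT and 128, 130 and 135 TPM in STBD1 W203C. STBD1 WT lay below both other groups, which overlapped. IDH3B rose by 0.14 (SE 0.044, edgeR adjusted p = 0.023) from STBD1 WT to STBD1 W203C. The ratio of IDH3A to IDH3B was 0.480 ± 0.0149 (SD, n = 3) in plvx neo and 0.519 ± 0.0113 in STBD1 WT, without overlap (exact permutation p = 0.1, adjusted 0.48). ACO1, the cytosolic aconitase that also binds iron-responsive elements in mRNA, fell by 0.18 (SE 0.047, edgeR adjusted p = 0.0059) from STBD1 WT at 22.7, 22.1 and 24.3 TPM to STBD1 W203C at 20.8, 21.6 and 19.9 TPM, and averaged 21.6 TPM in plvx neo. The ACO1 call between the constructs was lost with both limma fits on TPM. CS, citrate synthase, was called in no comparison by the main edgeR test. Its 111 to 116 TPM in STBD1 W203C lay above the 96.5 to 105 TPM of the other 6 libraries. Between the constructs CS was called with both limma fits on TPM.

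Of the succinyl-CoA ligase subunits, SUCLA2, the ADP-forming beta subunit, was at 29.8, 33.0 and 31.3 TPM in plvx neo, 26.7, 26.9 and 26.7 TPM in STBD1 WT and 29.6, 32.0 and 35.9 TPM in STBD1 W203C. STBD1 WT lay below both other groups. SUCLA2 fell by 0.28 (SE 0.058, edgeR adjusted p = 0.0011) in STBD1 WT vs plvx neo and rose by 0.23 (SE 0.066, adjusted p = 0.012) in STBD1 W203C vs STBD1 WT, a call lost without the high replicate 3. SUCLG1, the alpha subunit, fell by 0.17 (SE 0.050, adjusted p = 0.013) in STBD1 WT, from 54.6 to 60.3 TPM down to 49.2 to 50.7 TPM. The SUCLG1 call was lost with both limma fits on TPM, with the GC and length correction and without plvx neo replicate 3. The GTP-forming beta subunit SUCLG2 was called nowhere and stayed within 39.2 to 42.7 TPM. The ratio of SUCLA2 to SUCLG2 was 0.757 ± 0.0227 (SD, n = 3) in plvx neo, 0.656 ± 0.0264 with STBD1 WT and 0.789 ± 0.0726 with STBD1 W203C, and STBD1 WT did not overlap with either (exact permutation p = 0.1, adjusted 0.48).

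The later steps changed little. FH, fumarase, fell by 0.20 (SE 0.050, edgeR adjusted p = 0.0061) in STBD1 WT. Its levels were 57.9, 61.9 and 56.2 TPM in plvx neo and 52.8, 46.8 and 52.2 TPM in STBD1 WT, without overlap. In STBD1 W203C it stood at 54.2 to 57.7 TPM. The FH call was lost with both limma fits on TPM and without STBD1 WT replicate 2, the library at 46.8 TPM. SDHB, the iron-sulfur subunit of succinate dehydrogenase, fell by 0.16 (SE 0.043, edgeR adjusted p = 0.0078) in STBD1 WT. Its level went from 139 to 145 TPM down to 121 to 132 TPM. The SDHB call was lost with the GC and length correction, without and with the replicate block, and without STBD1 WT replicate 1. SDHD, a membrane anchor of succinate dehydrogenase, rose by 0.12 (SE 0.040, edgeR adjusted p = 0.026) from STBD1 WT to STBD1 W203C. Of 15 alternatives 10 lost that call, among them the fit without the filter, both limma fits, the replicate block and 4 of the 6 that left out a library. The other subunits SDHA and SDHC and the malate dehydrogenase MDH2 were called in no comparison, with log2 fold changes between −0.06 and 0.05.

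The genes of glutamate entry and the shuttle leaned downward in STBD1 WT: 4 of 6 were called lower than in plvx neo and none higher, where 13.9% of all genes were called in each direction. GPT2, the mitochondrial alanine aminotransferase, which turns pyruvate and glutamate into alanine and 2-oxoglutarate, lies on the plus strand of chromosome 16 at 46884362 to 46931289. It stood at 33.3, 27.9 and 26.8 TPM in plvx neo, 23.9, 20.3 and 22.5 TPM in STBD1 WT and 23.0, 24.1 and 26.8 TPM in STBD1 W203C. STBD1 WT lay below plvx neo, and STBD1 W203C overlapped with STBD1 WT and, in its highest library, reached about the lowest plvx neo library. The log2 fold change was −0.52 (SE 0.055, edgeR adjusted p = 5.5e-07) in STBD1 WT vs plvx neo, 0.23 (SE 0.062, adjusted p = 0.0074) in STBD1 W203C vs STBD1 WT and −0.30 (SE 0.057, adjusted p = 0.0017) in STBD1 W203C vs plvx neo. Without the high replicate 3 of STBD1 W203C, the difference between the constructs was 0.16 and no longer called.

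GLUD1, glutamate dehydrogenase, fell by 0.17 (SE 0.037, edgeR adjusted p = 0.0015) in STBD1 WT, from 71.0 to 75.2 TPM down to 63.4 to 65.7 TPM. GOT1, whose promoter is printed above, fell by 0.17 (SE 0.043, adjusted p = 0.0059) from 85.4 to 94.0 TPM down to 75.5 to 78.9 TPM. In STBD1 W203C vs plvx neo the log2 fold changes were −0.15 for GOT1 and −0.12 for GLUD1 (edgeR adjusted p = 0.056 and 0.079). There GOT1 was called without the filter, with all 9 libraries and with the replicate block. Both genes were called there with the GC and length correction, without and with that block, and GLUD1 without STBD1 W203C replicate 3. GOT2, the mitochondrial aspartate aminotransferase, fell by 0.16 (SE 0.037, adjusted p = 0.0036) in STBD1 WT and rose by 0.14 (SE 0.039, adjusted p = 0.011) from there to STBD1 W203C, at 94.9 to 99.0, 84.6 to 91.8 and 95.2 to 100 TPM. Both limma fits on TPM lost both GOT2 calls, and the rise was also lost without STBD1 WT replicate 2. MDH1, the cytosolic malate dehydrogenase at 166 to 176 TPM, was called in no comparison. SLC25A11 at 48.8 to 61.1 TPM was called in none by the main edgeR test. Between the constructs, SLC25A11 was called with both limma fits on TPM and with the GC and length correction without the replicate block. In STBD1 WT vs plvx neo it was called with that correction together with the block. The ratios of GOT1 to GOT2, MDH1 to MDH2 and MPC1 to MPC2 overlapped between the groups in all 3 comparisons.

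SLC25A1, the carrier that exports citrate from mitochondria, lies on the minus strand of chromosome 22 at 19175581 to 19178739. It stood at 85.4, 80.3 and 83.0 TPM in plvx neo, 110, 106 and 108 TPM in STBD1 WT and 92.5, 98.6 and 91.0 TPM in STBD1 W203C. The 3 groups did not overlap, with STBD1 WT highest and plvx neo lowest. The log2 fold change was 0.39 (SE 0.041, edgeR adjusted p = 5.4e-07) in STBD1 WT vs plvx neo, −0.23 (SE 0.040, adjusted p = 0.00019) in STBD1 W203C vs STBD1 WT and 0.16 (SE 0.044, adjusted p = 0.036) in STBD1 W203C vs plvx neo. The last call was kept in 7 of 15 alternatives. It was lost with both limma fits on TPM and after a correction for GC content and length. It was also lost without plvx neo replicate 2 or 3 or STBD1 W203C replicate 1 or 2.

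In both comparisons with STBD1 WT, the direction of the differences went with the GC content of the transcripts. The 5 genes higher in STBD1 WT than in plvx neo had a median GC content of 57.6% and the 14 lower ones 45.4%, and over all genes called the medians were 56.7% and 47.2%. In STBD1 W203C vs STBD1 WT the order was turned around, with 45.8% for the 10 higher genes and 56.5% for the 4 lower ones, beside 48.0% and 55.9% over all genes called. Not every called gene followed this order. PCK2 at 59.9%, GPT2 at 55.6% and IDH3B at 54.35% were GC-rich and fell in STBD1 WT, and PDHB at 45.9% rose. GOT2 at 52.0% and DLST at 51.6%, above the median of 50.2% over all genes tested, also fell. With a per-library correction for GC content and length, 18 of the 38 genes were called in STBD1 WT vs plvx neo, 8 higher and 10 lower. IDH3A, PDHX, SDHB and SUCLG1 then lost their calls and ACO1, MPC2 and PDP1 gained one. Between the constructs 11 were called, 6 higher and 5 lower, with DLD, ME2, PDHX, SDHD and SUCLA2 lost and PDHB and SLC25A11 gained. The median log2 fold change of the 38 genes became 0.01 and −0.00067. PCK2, GPT2, OGDH, IDH2, SLC25A1, DLAT and IDH3B kept their direction and their calls in both of these comparisons.

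**Figure D4:**
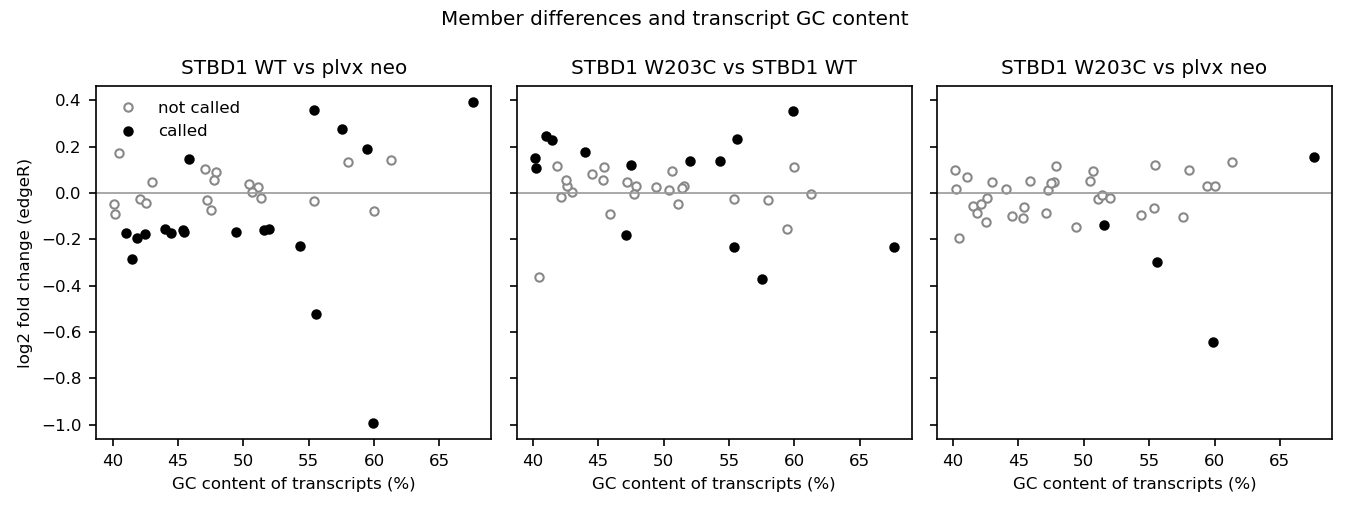
Each point is 1 of the 38 genes, with the GC content of its transcripts in percent on the horizontal axis and its edgeR log2 fold change on the vertical axis, 1 panel per comparison, filled where called. In the first panel the called genes above 0 have a median GC content of 57.6% and those below 0 one of 45.4%, with PCK2 as the lowest point at 59.9%. In the second panel the order is turned around.

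Of 36 other genes of the pathway, 30 could be tested in the first 2 comparisons and 29 in the last. In STBD1 WT vs plvx neo 8 were called, 5 higher and 3 lower, in STBD1 W203C vs STBD1 WT 8, 5 higher and 3 lower, and in STBD1 W203C vs plvx neo 4, 3 higher and 1 lower. These shares of 26.7%, 26.7% and 13.8% stood beside 27.8%, 27.9% and 5.7% of all genes. PDK1, a kinase that inactivates pyruvate dehydrogenase and a known target of hypoxia-inducible factor, stood at 5.63, 5.38 and 5.89 TPM in plvx neo, 7.67, 7.42 and 7.35 TPM in STBD1 WT and 5.10, 4.45 and 7.19 TPM in STBD1 W203C. STBD1 WT was highest, and replicate 3 of STBD1 W203C came close to it. PDK1 rose by 0.31 (SE 0.086, edgeR adjusted p = 0.011) in STBD1 WT vs plvx neo, fell by 0.64 (SE 0.090, adjusted p = 1.9e-05) in STBD1 W203C vs STBD1 WT and fell by 0.33 (SE 0.090, adjusted p = 0.029) in STBD1 W203C vs plvx neo. The last difference depended on the unit, since the mean level was 5.58 TPM in STBD1 W203C and 5.63 TPM in plvx neo, with estimated transcript lengths of 3353 ± 793 and 3878 ± 496 bases (SD, n = 3).

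LIAS, the enzyme that makes the lipoyl group carried by DLAT and DLST, stood at 18.2, 18.4 and 20.6 TPM in plvx neo, 15.5, 12.3 and 15.8 TPM in STBD1 WT and 19.3, 20.1 and 19.8 TPM in STBD1 W203C, with STBD1 WT below both other groups. It fell by 0.34 (SE 0.081, edgeR adjusted p = 0.0032) in STBD1 WT vs plvx neo and rose by 0.22 (SE 0.079, adjusted p = 0.039) in STBD1 W203C vs STBD1 WT. SLC1A5, a glutamine transporter of the plasma membrane, was at 128, 130 and 133 TPM, then 110, 103 and 105 TPM, then 126, 124 and 134 TPM. STBD1 WT again lay below both other groups (log2 fold changes −0.30 and 0.23, edgeR adjusted p = 6.6e-06 and 0.00027). SLC25A22, a mitochondrial glutamate carrier, rose stepwise, at 44.2, 45.6 and 42.4 TPM, then 50.6, 47.8 and 49.2 TPM, then 55.7, 54.9 and 56.8 TPM, and was called in all 3 comparisons.

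Among 24 glycolytic enzymes, 16 could be tested. In STBD1 WT vs plvx neo 6 were higher and none lower, in STBD1 W203C vs STBD1 WT 9 were lower and none higher, and in STBD1 W203C vs plvx neo 4 were lower and none higher. Over all genes, 13.9% were higher in the first comparison, 13.4% lower in the second and 2.67% lower in the third. A list of 16 genes of the ATF4 response, of which 15 could be tested, was lower in STBD1 WT than in plvx neo for 12 and higher for none, where 13.9% of all genes were lower. From STBD1 WT to STBD1 W203C, 9 were higher and CEBPB, a transcription factor, was lower, and in STBD1 W203C vs plvx neo 9 were lower, beside 14.5% of all genes higher and 2.67% lower in these comparisons. ASNS, asparagine synthetase, named here after its values were seen, stood at 195, 202 and 198 TPM in plvx neo, 77.1, 78.0 and 74.3 TPM in STBD1 WT and 129, 124 and 153 TPM in STBD1 W203C. The groups had the order seen for PCK2, and replicate 3 of STBD1 W203C was again the highest of its group.

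Overlapping genes limit some of these levels, since use of the read strand in counting was not stated. IDH3A shares 38.2% of its exonic bases with ACSBG1 on the opposite strand, PDK2 38.6% with SAMD14, MPC2 21.8% with DCAF6, PDHA1 19.3% with MAP3K15 and DLAT 13.3% with PIH1D2. ACSBG1, SAMD14, MAP3K15 and PIH1D2 had mean levels of 0.40 to 1.38 TPM and DCAF6 one of 20.1 TPM. IDH3G shares 9.89% of its exonic bases with SSR4 on the opposite strand, which at a mean of 224 TPM was the most abundant of the overlapping genes. PC shares 8.5% with LRFN4 at 32.4 TPM and PDHX 4.09% with APIP at 34.0 TPM, both on the opposite strand. SDHD and CS share exonic bases with read-through genes on their own strand. Reads of SDHA and GLUD1 can also be shared with near-identical copies, so their levels are uncertain.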

How the data were processed

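Total RNA of 9 HCT116 libraries was sequenced as read pairs after NEBNext Ultra library preparation. According to the labels and the methods of the study, the authors aligned reads to hg38 with STAR 2.7.1a and estimated abundances with RSEM 1.3.1 on Ensembl gene models. Each library has 1 deposited table with the expected count of every gene, an estimate that need not be whole. The deposited TPM, scaled by the authors to effective length and a fixed total, served for levels, and the deposited FPKM served only for an alternative to the ratios. Use of the read strand was not stated. Symbols matched 57754 of 58395 genes.

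Groups and replicate numbers came from the sample titles. Expected counts were rounded, filtered with filterByExpr, normalised by TMM and tested with the two-sided edgeR 4.0.16 quasi-likelihood test (glmQLFit, glmQLFTest) in R 4.3.3, on the 6 libraries of each comparison, with Benjamini-Hochberg adjustment over all genes tested and calls below 0.05. The fits were tested on simulated counts. Alternatives were RLE size factors, no filter, a fit of all 9 libraries, DESeq2 1.42.0, limma 3.58.1 on log2(TPM + 1) and log2(TPM + 0.1), the replicate block, a correction for GC content and length (GC known for 99.4% of genes tested) and leaving out each library. Ratios of 8 pairs of partner genes were compared by two-sided exact permutation tests with scipy 1.17.1.

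The members and lists were chosen with earlier results of these data known. Per-library values are given for called members whose TPM did not overlap (the 8 largest per comparison) and DLD, and for others outside this rule where a partner or role called for them, chosen after their values were seen. Other pathway genes were named where called in at least 2 comparisons (the 4 largest). Depth of 16.9 to 23.3 M and a biological coefficient of variation of 4.05% to 4.21% set the precision. Replicates are called biological in the series design, and they differed beyond sampling noise (chi-square per gene 2.12 to 3.87). Gene positions and GC content came from GENCODE v44, promoters from RefSeq (GRCh38.p14). Promoters of PDP1, OGDH, SDHC and GPT2 were not analysed here.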

Additional observations from a re-analysis of the deposited data

How the results depend on the processing

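For single genes, refits were tallied only for those given full values by the rule above and those called in the comparison by the main edgeR test. Of these refitted values, 626 kept their direction and their side of the threshold, 114 lost their call, 2 gained one and 8 turned around. Calls gained by other genes lie outside this tally. Size factors, DESeq2, no filter, all 9 libraries and the replicate block kept each count of called genes, both directions together, within 1.5 times, except that DESeq2 called 2 other pathway genes in STBD1 W203C vs plvx neo. By direction, DESeq2 called 3 rather than 5 of the 38 genes higher in STBD1 WT vs plvx neo, 1262 rather than 2024 of all genes lower in STBD1 W203C vs STBD1 WT and 258 rather than 402 lower in STBD1 W203C vs plvx neo. Same-numbered libraries deviated together by r of −0.012 to 0.068, so numbers did not pair them. The replicate block gave 19, 11 and 5 of the 38 genes (in the order WT against plvx neo, W203C against WT and W203C against plvx neo, as for all triplets here), 4400, 3662 and 1003 of all genes and 8, 7 and 4 other pathway genes, with medians of −0.0388, 0.0299 and −0.0136.

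limma on log2(TPM + 1) called 12, 8 and 0 of the 38 genes, 1751, 1828 and 131 of all genes and 5, 4 and 1 other pathway genes, and on log2(TPM + 0.1) 12, 9 and 0, then 1749, 1807 and 115, then 5, 4 and 1. Their medians for the second comparison were 0.0986 and 0.0998, and for the third 0.0428 and 0.0432. The log2 fold change of DLD in STBD1 WT vs plvx neo turned to 0.14 in both and to 0.023 and 0.022 with the GC and length correction without and with the replicate block. That of SUCLA2 in STBD1 W203C vs plvx neo turned to 0.047 and 0.048 on TPM. The GC and length correction gave medians of 0.0131, −0.00067 and −0.00475, and together with the replicate block 0.0127, −0.000436 and −0.00477 with 9 of the 38 genes called between the constructs. The cause was not tested.

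Leaving out 1 library gave 15 to 18, 8 to 13 and 2 to 5 of the 38 genes, 3317 to 3794, 3307 to 3618 and 459 to 818 of all genes and 6 to 7, 6 to 8 and 2 to 5 other pathway genes. The medians ran from −0.0553 to −0.0255, from 0.0316 to 0.0456 and from −0.0341 to −0.00139. The 459 came without plvx neo replicate 3, with 501 and 543 without STBD1 W203C replicates 1 and 2. The uncalled log2 fold change of PDHX in STBD1 W203C vs plvx neo ran from −0.0124 to 0.045, with −0.00619 without plvx neo replicate 2. Of the 24 ratio comparisons, 5 did not overlap, and 5 to 8 did not when 1 library was left out, the 8 without plvx neo replicate 3 or STBD1 W203C replicate 2. At 3 libraries per group, no ratio could pass the threshold.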
